A study of Mus musculus with 6 samples.

Results

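The genes described here are 10 genes of the integrated stress response and the unfolded protein response, chosen by name from 46078 listed genes. They are the transcription factors *Atf3*, *Atf4*, *Ddit3* and *Xbp1*, the pseudokinase gene *Trib3*, the metabolic and redox genes *Asns*, *Chac1* and *Sesn2*, and the endoplasmic reticulum (ER) chaperone genes *Hspa5* and *Dnajb9*. RNA-seq compared C2C12 cells, an immortalized mouse myoblast line, labelled *Hnrnpa2b1* KO (3 libraries, KO1 to KO3) or WT (3 libraries, WT1 to WT3). *Hnrnpa2b1* encodes an RNA-binding protein of the hnRNP family. All cells were grown for 24 hr and then differentiated for 2 days by serum withdrawal with insulin, transferrin and selenium, so both genotypes carry the same treatment. The KO cells were edited with CRISPR-Cas9 and selected with puromycin, and clones of each genotype were picked. In its Western blot the study names cells treated with a scrambled guide RNA beside the KO. Whether the WT libraries came from such cells, and which clone gave which library, is not given in the sources used here. The p-values therefore measure the spread between these libraries. CPM is the count scaled to the library size, with TMM factors. *Hnrnpa2b1* itself was at 159, 195 and 249 CPM in KO and at 225, 229 and 252 CPM in WT. These levels overlapped, with a log2 fold change of −0.23 (SE 0.18, adjusted p = 0.381). A count over the whole gene does not read a small edit, so the genotypes rest on the labels and on the study's own protein assays of the clones (immunofluorescence and Western blot), not on these counts, and "KO" below means the libraries labelled so.

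In the integrated stress response, kinases that sense amino acid shortage, ER stress, double-stranded RNA or other stress phosphorylate the translation factor eIF2. General translation then falls, while translation of the *Atf4* mRNA rises. ATF4 in turn drives transcription of genes for amino acid supply, redox balance and further transcription factors such as ATF3 and CHOP, the product of *Ddit3*. The unfolded protein response adds the ER sensors IRE1 and ATF6, which raise ER chaperones such as BiP, the product of *Hspa5*, partly through XBP1. Differentiating myoblasts are known to use parts of this response.

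Binding motifs of these pathways were looked for in the promoters of the 10 genes, in RefSeq windows of 300 bases on GRCm38.p6 that ran from 250 bases before to 50 bases after the RefSeq start. All 10 genes had a window. That start was within 120 bases of the 5′ end of the gene as deposited for 9 genes, but for *Atf3* it lay 34706 bases inside the gene, so its window is that of an internal start. The C/EBP-ATF response element (CARE, TGATGNAA, both strands) was in 4 of the 10 windows and in 3.97% of 32851 mouse promoter windows. The ER stress response element (ERSE, searched as CCAAT and CCACG with any 9 bases between them, both strands) was in 1 of the 10 and in 0.119% of all windows. The letters TGACGTGG of the unfolded protein response element were in 0 of the 10 and in 0.676% of all windows. The second block of the ERSE, CCACG, was on its own in 32.8% of all windows. The 5 windows with a full match are shown on the strand of the gene, with the match in capitals, because they carry the CARE and ERSE letters; the other 5 genes had none of the full motifs.

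*Atf3*, chr1:191183425-191183454: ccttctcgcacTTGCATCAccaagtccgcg

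*Chac1*, chr2:119351038-119351067: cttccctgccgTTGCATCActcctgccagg

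*Trib3*, chr2:152344028-152344057: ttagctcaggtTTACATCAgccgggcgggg

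*Asns*, chr6:7693214-7693243: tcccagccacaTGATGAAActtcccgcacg

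*Hspa5*, chr2:34772020-34772049: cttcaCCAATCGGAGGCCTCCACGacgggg

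The match began 110 bases before the RefSeq start in *Atf3* (the internal start), 193 before it in *Chac1*, 23 before it in *Asns* and 65 before it in *Hspa5*. In *Trib3* it began downstream, at base 15 when the start itself is counted as the first base. In *Atf3*, *Chac1* and *Trib3* the capitals are the reverse complement of CARE. A match describes these letters only, and factor binding was not measured.

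Of the 10 genes, 3 were lower in KO by the edgeR quasi-likelihood test at an adjusted p under 0.05: *Hspa5* at 0.450 of its WT level, *Xbp1* at 0.579 and *Asns* at 0.588. None was called higher, and the other 7 were not called. Over all 14828 genes tested, 10.6% were called lower, 12.1% higher and 22.7% either. The median log2 fold change of the 10 genes was −0.62, beside 0.034 over all genes tested, with 8 of the 10 below 0. At an unadjusted p under 0.05, 5 of the 10 were lower and 0 higher, beside 18.5% lower, 20.5% higher and 39.0% either over all genes tested. DESeq2 called 4 of the 10 lower and 0 higher, beside 11.8% lower, 12.5% higher and 24.3% either of 17114 genes. Without a filter on low counts edgeR called 5 of the 10, all lower, beside 7.33% lower, 7.67% higher and 15.0% either of 30252 genes. In TPM, which also corrects for transcript length (log2(TPM + 1), limma), 4 of the 10 were lower and 0 higher, beside 11.8% and 8.46% of 11691 genes and 20.2% in either direction. With no filter on low TPM none of these 4 was called (adjusted p = 0.0693 for *Asns*, 0.122 for *Hspa5*, 0.068 for *Xbp1* and 0.241 for *Atf3*), where 1056 of all genes were. The libraries of *Hspa5*, *Xbp1*, *Asns*, *Atf3* and *Ddit3* did not overlap between genotypes in CPM, with KO below WT each time, as in 21.6% of all genes tested; in 44.3% they did not overlap in either direction. For each of these 5 genes an exact two-sided permutation test gave p = 0.1, the smallest that 3 libraries against 3 allow. The calls depended on single libraries: without WT1 none of the 10 genes was called, where 933 of all genes tested were called, against 3361 with all libraries; without KO1 5 genes were called lower, where 4712 of all genes were called (2331 lower), and without WT2 *Xbp1* was called lower and *Chac1* higher, where 2099 were called.

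**Figure D1:**
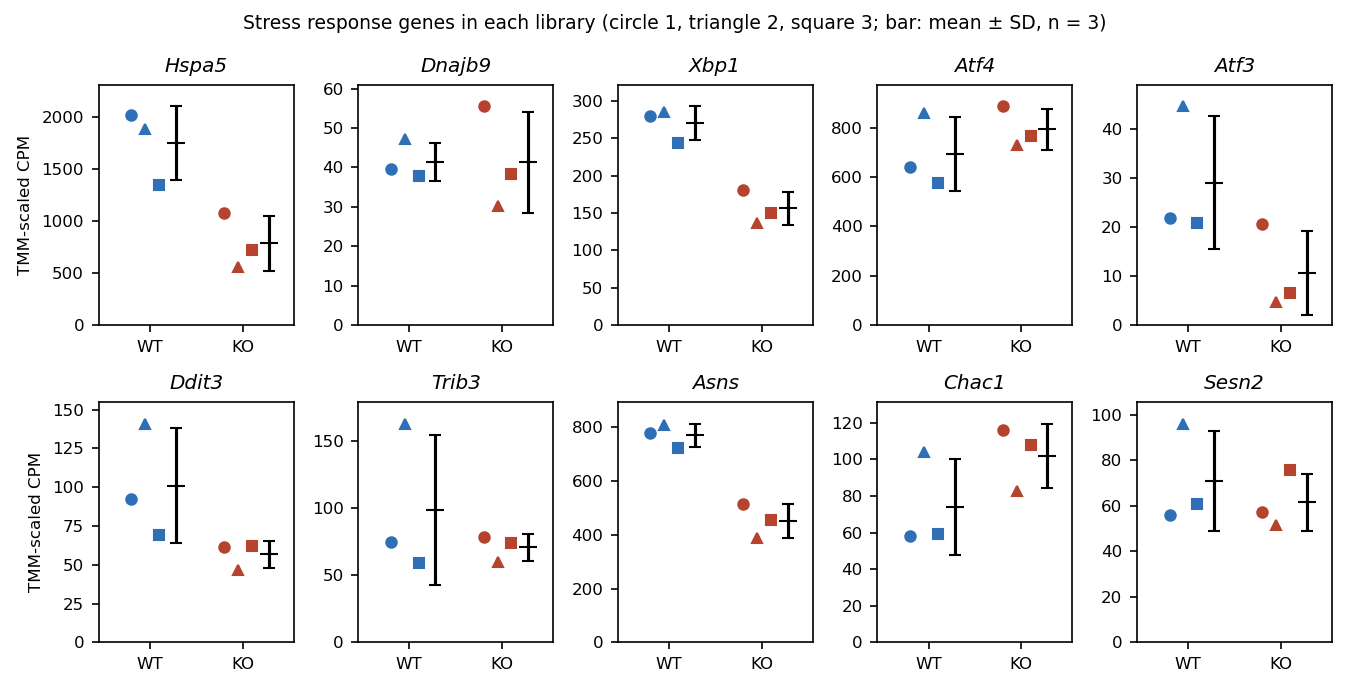
TMM-scaled CPM (linear axis from 0) of the 10 genes in each WT (blue) and KO (red) library; symbols mark libraries 1 to 3, and the bar is the mean ± SD of 3 libraries. All KO points of *Hspa5*, *Xbp1*, *Asns*, *Atf3* and *Ddit3* lie below all WT points, and the WT2 triangle is the highest WT point for 9 of the 10 genes.

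On the TPM scale, which allows levels of different genes to be compared, the order in WT began with *Hspa5* at 459 ± 113 (SD, n = 3), then *Atf4* at 272 ± 71.6 and *Asns* at 261 ± 29.3. Below them came *Xbp1* at 90.4 ± 12.3, *Ddit3* at 79.1 ± 33.5, *Trib3* at 33.7 ± 20.4 and *Chac1* at 30.8 ± 12.1. *Dnajb9* at 14.8 ± 2.53, *Sesn2* at 14.0 ± 4.91 and *Atf3* at 10.2 ± 5.16 closed the order. The WT libraries of *Hspa5* and *Atf4* overlapped, as did those of *Atf4* and *Asns*, *Xbp1* and *Ddit3*, *Trib3* and *Chac1*, and the last 3 genes. Overlap also crossed these sets, since *Ddit3* in WT3 (49.2 TPM) was below *Trib3* in WT2 (57.0 TPM), and *Trib3* in WT3 (18.8 TPM) was below *Sesn2* in WT2 (19.7 TPM). In KO the first place went to *Atf4*, at 309 ± 34.0 TPM, and *Hspa5* followed at 206 ± 59.1, with no overlap between the libraries of these 2 genes. Over all libraries the mean level of *Hspa5* stood at the 98.5 percentile of genes tested in TPM and that of *Atf3* at the 45.2 percentile.

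*Hspa5* (ENSMUSG00000026864, chr2:34771970-34777547, plus strand, GRCm38) encodes BiP, the main HSP70 chaperone of the ER lumen, which also holds the ER stress sensors inactive. Its levels were 1080, 559 and 727 CPM in KO1 to KO3 and 2020, 1890 and 1350 CPM in WT1 to WT3. KO lay below WT throughout, and the gap between KO1 and WT3 was smaller than the range within either genotype. The log2 fold change was −1.15 (SE 0.29, adjusted p = 0.0268), and in TPM it was −1.16 (SE 0.26, adjusted p = 0.0184). The count call was lost without KO2 (adjusted p = 0.0559), KO3 (0.077), WT1 (0.109) or WT2 (0.0702), while the fold change stayed between −1.45 and −0.95 over 12 settings. The TPM call was lost without WT1 (0.0982) or WT2 (0.0544). *Dnajb9* (ENSMUSG00000014905, chr12:44205897-44210068, minus strand) encodes ERdj4, an ER co-chaperone of BiP and a known XBP1 target. It was at 55.5, 30.2 and 38.3 CPM in KO and at 39.5, 47.1 and 37.8 CPM in WT. The KO libraries spanned the whole WT range. Its log2 fold change was −0.01 (SE 0.22, adjusted p = 0.989), and its sign turned without KO2, KO3 or WT2, to 0.18, 0.05 and 0.08, and with library totals as the only scaling, to 0.10.

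*Xbp1* (ENSMUSG00000020484, chr11:5520659-5525893, plus strand) encodes the factor whose mRNA IRE1 splices during ER stress. Gene counts do not read that splicing, so the values are of both forms together. They were 181, 137 and 150 CPM in KO and 280, 285 and 244 CPM in WT. The KO libraries all lay below the WT libraries, by more than the spread within either genotype. KO over WT, the log2 fold change was −0.79 (SE 0.15, adjusted p = 0.0115), and in TPM it was −0.78 (SE 0.17, adjusted p = 0.0167). The count call held in 11 of 12 settings and was lost without WT1 (−0.77, adjusted p = 0.0612); in TPM it was lost without WT1 (0.0935) or WT2 (0.0584). The 80 tested genes in the same 10 Mb of chromosome 11 had a median log2 fold change of −0.30, beside 0.12 over 131 genes around *Hspa5* and −0.17 over 25 genes around *Asns*; the part of these neighbourhoods in the results was not tested.

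*Atf4* (ENSMUSG00000042406, chr15:80255184-80257540, plus strand) encodes the central factor of the integrated stress response, which is set largely at translation and which mRNA counts therefore read only in part. It was at 886, 728 and 766 CPM in KO and at 640, 861 and 577 CPM in WT. WT2 lay inside the KO range, and the other WT libraries lay below it. KO over WT, the log2 fold change was 0.20 (SE 0.20, adjusted p = 0.502), between 0.05 and 0.37 over the settings. *Atf3* (ENSMUSG00000026628, chr1:191170296-191218039, minus strand), a stress-induced repressor and activator, was at 20.5, 4.81 and 6.57 CPM in KO and at 21.7, 44.5 and 20.7 CPM in WT. KO1 was just below WT1 and WT3, KO2 and KO3 were far below them, and WT2 was far above. The log2 fold change was −1.45 (SE 0.56, adjusted p = 0.0943) in counts and −1.36 (SE 0.41, adjusted p = 0.0484) in TPM. Without KO1 it was −2.35 in counts, with an adjusted p of 0.00299, and without WT2 it was −1.02; with no filter on low counts it was called lower (adjusted p = 3.64e-07). The TPM call was lost without any one of KO2, KO3, WT1, WT2 or WT3, with adjusted p of 0.115, 0.119, 0.121, 0.123 and 0.077, and with a pseudocount of 0.1 (0.0647).

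*Ddit3* (ENSMUSG00000025408, chr10:127290774-127296288, plus strand) encodes CHOP, a C/EBP-family factor of prolonged ER stress. It was at 61.5, 46.8 and 62.0 CPM in KO and at 92.4, 141 and 69.2 CPM in WT. KO lay below WT throughout in CPM, but in TPM KO3 at 54.0 was above WT3 at 49.2. KO over WT, the log2 fold change was −0.83 (SE 0.26, adjusted p = 0.0529) in counts and −0.78 (SE 0.30, adjusted p = 0.0945) in TPM. DESeq2 called it lower (adjusted p = 0.0116), as did edgeR without KO1 (0.0449) or WT3 (0.0389) and with no filter on low counts (0.000141), and without WT2 its fold change was −0.52. Of its 1713 exon bases 68 are shared with the antisense gene *Mars*, which had 9100 to 10693 counts, and the strand setting of the counting is not given in the sources used here, so a few of these reads may belong to *Mars*. *Trib3* (ENSMUSG00000032715, chr2:152337422-152344032, minus strand), a target of ATF4 and CHOP that restrains both, was at 78.9, 59.6 and 74.1 CPM in KO and at 74.5, 163 and 59.4 CPM in WT. Its KO libraries and WT1 and WT3 lay together, with WT2 alone above them. The log2 fold change was −0.48 (SE 0.35, adjusted p = 0.344), and without WT2 it turned to 0.07.

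*Asns* (ENSMUSG00000029752, chr6:7675169-7693254, minus strand) encodes asparagine synthetase, an ATF4 target. It was at 513, 387 and 453 CPM in KO and at 776, 807 and 720 CPM in WT. The genotypes were separated by more than the spread within each. KO over WT, the log2 fold change was −0.77 (SE 0.17, adjusted p = 0.0171), and in TPM it was −0.78 (SE 0.17, adjusted p = 0.017). The count call was lost without WT1 (adjusted p = 0.0807), WT2 (0.052) or WT3 (0.0513), and the TPM call without WT1 (0.0916) or WT2 (0.0589), with count fold changes between −0.88 and −0.66 over all settings. *Chac1* (ENSMUSG00000027313, chr2:119351229-119354381, plus strand) encodes a glutathione-degrading enzyme. It was at 116, 82.5 and 108 CPM in KO and at 58.3, 104 and 59.3 CPM in WT. WT2 lay inside the KO range and the other WT libraries below it, as for *Atf4*. KO over WT, the log2 fold change was 0.46 (SE 0.25, adjusted p = 0.208), and without WT2 it was 0.79 with an adjusted p of 0.0368. *Sesn2* (ENSMUSG00000028893, chr4:132492032-132510501, minus strand) encodes a leucine-sensing repressor of mTORC1. It was at 57.5, 51.5 and 75.7 CPM in KO and at 56.2, 96.2 and 60.7 CPM in WT, which overlapped. Its log2 fold change was −0.21 (SE 0.24, adjusted p = 0.554), and without WT2 it turned to 0.07.

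**Figure D2:**
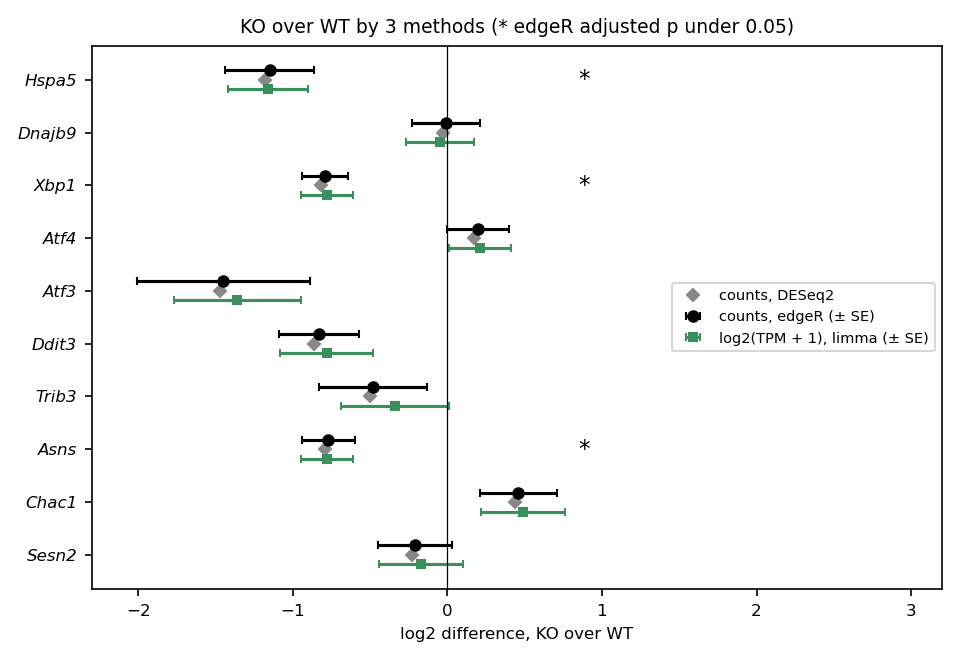
Log2 difference of KO over WT for the 10 genes from counts with edgeR (black, ± SE) and DESeq2 (grey) and from log2(TPM + 1) with limma (green, ± SE); stars mark an edgeR adjusted p under 0.05. The 3 methods lie close together for each gene, and *Hspa5*, *Xbp1* and *Asns* carry the stars.

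Of the 4 genes with a CARE match in the promoter window, edgeR called *Asns* lower, and in TPM *Asns* and *Atf3* were called lower. Over all genes tested, 10.6% were called lower in counts and 22.7% in either direction, and in TPM 11.8% and 20.2%. The part of the motifs in these values was not tested. The log2 fold changes were −0.77 for *Asns*, −1.45 for *Atf3*, −0.48 for *Trib3* and 0.46 for *Chac1*. *Hspa5*, with the ERSE match, was called lower, and *Xbp1*, with neither match, was called lower as well.

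The 10 genes differed in how the WT libraries stood to each other, a pattern examined after its values were seen. WT2 was the highest WT library for 9 of the 10 genes, beside 36.9% of all genes tested, and the highest of all 6 libraries for 6. Against the mean of WT1 and WT3, WT2 was 2.43-fold for *Trib3*, 2.10 for *Atf3*, 1.78 for *Chac1*, 1.75 for *Ddit3*, 1.65 for *Sesn2* and 1.42 for *Atf4*. For *Hspa5*, *Xbp1* and *Asns*, the genes called lower, it was 1.12, 1.09 and 1.08-fold, and for *Dnajb9* 1.22. At least 1.5-fold was reached by 5 of the 10 genes and by 8.53% of all genes tested. Among other genes of the response, 6 of 29 other ATF4 targets (20.7%) reached 1.5-fold. So did 1 of 12 eIF2 kinases, phosphatase subunits and eIF2 factors, namely *Ppp1r15a*, the phosphatase subunit GADD34, at 3.22-fold. In the other lists of the response it was 1 of 10 ER stress sensors, 1 of 24 ER chaperones, 1 of 18 ER-associated degradation genes and 1 of 20 tRNA synthetases. Outside the response, 3 of 12 immediate early genes reached it. In KO, KO1 was the highest KO library for 8 of the 10 genes, beside 35.1% of all genes tested, and KO2 was the lowest of all 6 libraries for 7. For the counts of genes highest or lowest of all 6 libraries, the share over all genes tested was not computed.

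**Figure D3:**
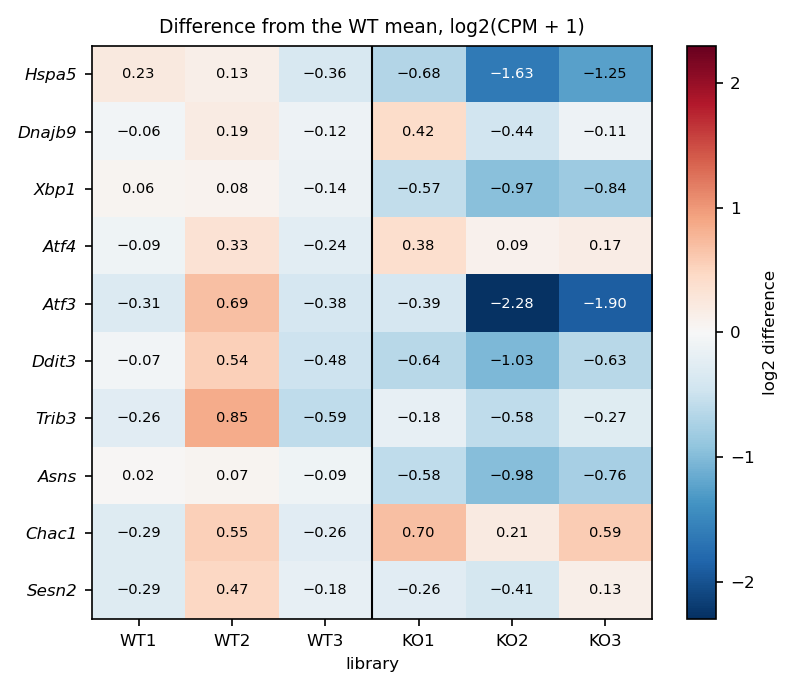
Difference of each library (columns) from the WT mean on the log2(CPM + 1) scale for the 10 genes (rows); red is above and blue below. WT2 is red in every row, and in the rows of *Hspa5*, *Xbp1*, *Asns*, *Atf3* and *Ddit3* the KO columns are blue.

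Across the 6 libraries, which share the genotype contrast, profiles were compared by Pearson's r of log2 CPM as a description. *Asns* and *Xbp1* had r = 0.996, *Hspa5* and *Xbp1* 0.983, and *Asns* and *Hspa5* 0.973. *Atf4* and *Chac1* had r = 0.94, and *Ddit3* and *Trib3* 0.856. *Ddit3* was as close to *Xbp1* (0.863), *Hspa5* (0.862) and *Asns* (0.86), and *Atf3* had 0.92 with *Hspa5*, 0.903 with *Xbp1* and 0.897 with *Asns*. The lowest values were −0.435 between *Chac1* and *Xbp1* and −0.431 between *Asns* and *Chac1*; *Atf4* and *Asns*, its known target, had r = −0.271. Among 5465 well-expressed genes, those most like *Atf4* were *Bak1* (r = 0.991), *Dcaf7* (0.979) and *Ube2w* (0.972). Those most like *Ddit3* were *Arhgef7* (0.997), *Arl4c* (0.993) and *Trim35* (0.990), and those most like *Hspa5* included *Mapk6* (0.994) and *Aldh3a2* (0.993).

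**Figure D4:**
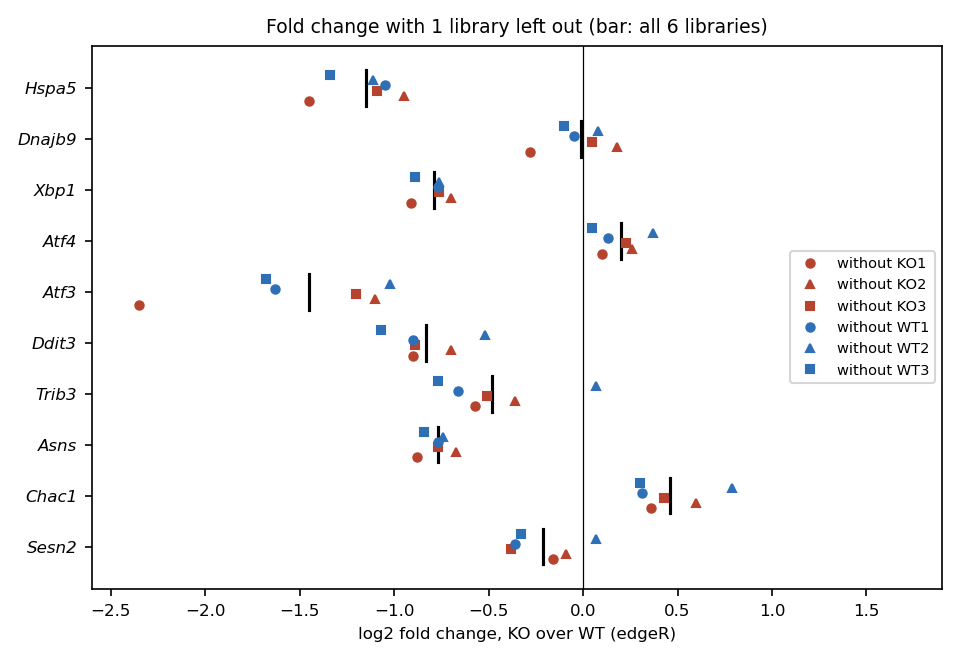
Log2 fold change of KO over WT (edgeR) for the 10 genes with 1 library left out (symbols; red KO, blue WT) and with all 6 libraries (bar). *Trib3*, *Sesn2* and *Dnajb9* cross 0 without WT2, and *Dnajb9* also without KO2 or KO3. *Atf3* moves to −2.35 without KO1, and *Hspa5*, *Xbp1* and *Asns* stay below 0 throughout.

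Upstream of these genes, the 12 listed eIF2 kinases, phosphatase subunits and eIF2 factors had 2 called higher and 0 lower. Over all genes tested the shares were 12.1% and 10.6%, and the median log2 fold change of the 12 was 0.06. At an unadjusted p under 0.05, 3 were higher and 2 lower, beside 39.0% of all genes tested in either direction. DESeq2 called 1 higher and 0 lower, beside 12.5% and 11.8%. *Eif2ak2*, the double-stranded RNA kinase PKR, was at 23.1, 23.4 and 28.4 CPM in KO and at 9.89, 12.0 and 12.0 CPM in WT, with a log2 fold change of 1.14 (SE 0.16, adjusted p = 0.00433), a call that held without any one library. *Eif2ak1*, the heme-regulated kinase, was 0.46 higher (SE 0.12, adjusted p = 0.0327). This call was lost by DESeq2 (0.0528), with no filter on low counts (0.0935) and with the replicate number as a block (0.0815). It was also lost without KO2 (0.0717), WT1 (0.149), WT2 (0.0992) or WT3 (0.0808). The ER kinase gene *Eif2ak3* was at −0.06 (SE 0.14, adjusted p = 0.769) and turned to 0.06 with library totals as the only scaling, and the amino acid sensor gene *Eif2ak4* was at 0.19 (SE 0.19, adjusted p = 0.484). *Ppp1r15a* was at 71.0, 56.4 and 80.9 CPM in KO and at 44.0, 135 and 39.8 CPM in WT; its log2 fold change of −0.07 (adjusted p = 0.923) turned to 0.72 without WT2. *Ppp1r15b*, the constitutive subunit, was at 0.30 (adjusted p = 0.0958), and was called higher with library totals (0.42, adjusted p = 0.041).

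Of the 10 listed ER stress sensors and their proteases, 1 was called higher and 0 lower, beside 12.1% and 10.6% of all genes tested. The median log2 fold change was −0.16. At an unadjusted p under 0.05, 1 was higher and 2 lower, beside 39.0% of all genes in either direction. DESeq2 called 1 higher and 2 lower, beside 12.5% and 11.8%. Without KO1, edgeR called 1 higher and 2 lower, where 2381 and 2331 of all genes were. *Creb3l1*, an ER-bound factor related to ATF6, was at 57.4, 49.2 and 87.7 CPM in KO and at 28.8, 39.8 and 24.4 CPM in WT. Its log2 fold change was 1.06 (SE 0.26, adjusted p = 0.0252). The call was lost without KO3 (0.0604), WT1 (0.103) or WT3 (0.0998), and with the replicate number as a block (0.0566). *Atf6* was at 493, 304 and 361 CPM in KO and at 527, 606 and 548 CPM in WT, without overlap, at −0.54 (SE 0.20, adjusted p = 0.0905); it was called lower without KO1 (−0.76, adjusted p = 0.0116), by DESeq2 (0.0455) and with no filter on low counts (0.0489). *Ern1*, which encodes IRE1, was at 0.10 (adjusted p = 0.805) and its sign turned without KO1, WT1 or WT3 (−0.07, −0.04 and −0.03), and *Atf6b* was at −0.14 (adjusted p = 0.507).

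Of 29 other ATF4 targets, 10 were called lower and 3 higher, beside 10.6% and 12.1% of all genes tested, with a median log2 fold change of −0.44. At an unadjusted p under 0.05, 12 were lower and 5 higher, beside 18.5% and 20.5%. DESeq2 called 11 lower and 3 higher, beside 11.8% and 12.5%. Those lower were *Gdf15*, *Slc1a5*, *Cth*, *Stc2*, *Pycr1*, *Eif4ebp1*, *Shmt2*, *Phgdh*, *Mthfd2* and *Aldh18a1*. The serine synthesis genes *Psat1* (−0.44, adjusted p = 0.215) and *Psph* (−0.28, adjusted p = 0.162) were not called. *Gdf15*, a stress-induced cytokine, was at 11.1, 11.2 and 5.25 CPM in KO and at 42.1, 46.0 and 40.9 CPM in WT, with a log2 fold change of −2.23 (SE 0.28, adjusted p = 0.00298), and is also a known p53 target. *Slc1a5*, a glutamine transporter, was at −1.32 (adjusted p = 0.0225) and *Cth* at −1.21 (adjusted p = 0.0238). Those higher were *Cbs*, which makes cystathionine, with 6.41, 13.5 and 15.8 CPM in KO and 0.781, 0.457 and 0.62 CPM in WT (4.26, SE 0.41, adjusted p = 0.00147), *Ddit4*, an inhibitor of mTORC1 (0.99, adjusted p = 0.00502), and *Cebpb* (0.92, adjusted p = 0.0171). Without WT1 the list had 2 lower, where 473 of all genes were, and without WT2 6, where 1029 were. With all libraries 1565 of all genes were lower. The calls of *Gdf15*, *Cbs* and *Ddit4* held without any one library. That of *Slc1a5* was lost without KO3 (0.072), WT1 (0.0807), WT2 (0.0529) or WT3 (0.0673), that of *Cth* without KO2 (0.0596), KO3 (0.0757) or WT1 (0.0579), and that of *Cebpb* without WT1 (0.0542), WT2 (0.0527) or WT3 (0.0826).

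Of 24 other ER chaperones and folding enzymes, 5 were called lower and 0 higher, beside 10.6% and 12.1% of all genes tested. In either direction this share was near the 22.7% of all genes tested. The median log2 fold change was −0.32. At an unadjusted p under 0.05, 9 were lower and 2 higher, beside 18.5% and 20.5% of all genes. DESeq2 called 8 lower and 0 higher, beside 11.8% and 12.5%. The 5 called lower by edgeR were *Manf*, *Hyou1*, *Pdia5*, *Hsp90b1* and *Dnajc3*. *Manf*, an ER-resident factor that binds BiP, was at 86.5, 56.8 and 55.3 CPM in KO and at 204, 195 and 132 CPM in WT (−1.42, SE 0.24, adjusted p = 0.00705), and this call held without any one library. *Hyou1*, the nucleotide exchange factor of BiP, was at 188, 122 and 152 CPM in KO and at 321, 383 and 258 CPM in WT (−1.06, SE 0.21, adjusted p = 0.0129), lost without WT1 (0.0574). *Pdia5* was at −0.91 (adjusted p = 0.0217), lost without KO2 (0.0549), WT1 (0.0734), WT2 (0.0679) or WT3 (0.0634). The count of 5 lower was 11 without KO1, 2 without KO2, 3 without KO3, 1 without WT1, 2 without WT2 and 2 without WT3. Over all genes tested, 2331, 1261, 919, 473, 1029 and 672 were lower in these fits, against 1565 with all libraries. With library totals as the only scaling the list had 3 lower and 2 higher, where 1174 and 2295 of all genes were. ER-associated degradation had 1 of 18 genes lower, the lectin gene *Erlec1* (−0.84, adjusted p = 0.0228), and 0 higher, beside 10.6% and 12.1% of all genes tested. At an unadjusted p under 0.05, 5 were lower and 1 higher, beside 18.5% and 20.5% of all genes. DESeq2 called 3 lower and 0 higher, beside 11.8% and 12.5%. Without KO1, 5 were lower and 1 higher, where 2331 and 2381 of all genes were. With no filter on low counts 4 were lower and 0 higher, beside 7.33% and 7.67%. The call of *Erlec1* was lost without KO3, WT1, WT2 or WT3 (0.0573, 0.0825, 0.0544 and 0.0738).

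Of 20 cytosolic tRNA synthetases, several of them ATF4 targets, 4 were called lower and 1 higher (median −0.26), a share in either direction near the 22.7% of all genes tested. *Yars* was at −0.70 (adjusted p = 0.0164), *Sars* at −0.65 (0.0261), *Qars* at −0.53 (0.0266) and *Farsa* at 0.54 (0.0302), while *Farsb*, its partner subunit, was lower at −0.40 (0.0423). The lower count was 2 without KO2, 1 without KO3, 0 without WT1, 1 without WT2 and 1 without WT3. Over all genes tested, 1261, 919, 473, 1029 and 672 were lower in these fits, against 1565 with all libraries. On all libraries the list had 4 lower by DESeq2, 3 with no filter on low counts and 2 with library totals. All genes then had 2026, 2218 and 1174 lower. With the replicate number as a block the list had 1 lower, where 1211 of all genes were. *Sars* (adjusted p = 0.058), *Qars* (0.0586) and *Farsa* (0.0652) then lost their calls. *Yars* was lost without WT1 or WT2 (0.0775 and 0.0516), *Sars* in every case but that without KO1 (0.0598 to 0.117), *Qars* without KO3, WT1 or WT3 (0.0734, 0.118 and 0.0715) or with library totals (0.0607), and *Farsa* without KO2, WT1, WT2 or WT3 (0.0685, 0.0941, 0.0999 and 0.113).

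**Figure D5:**
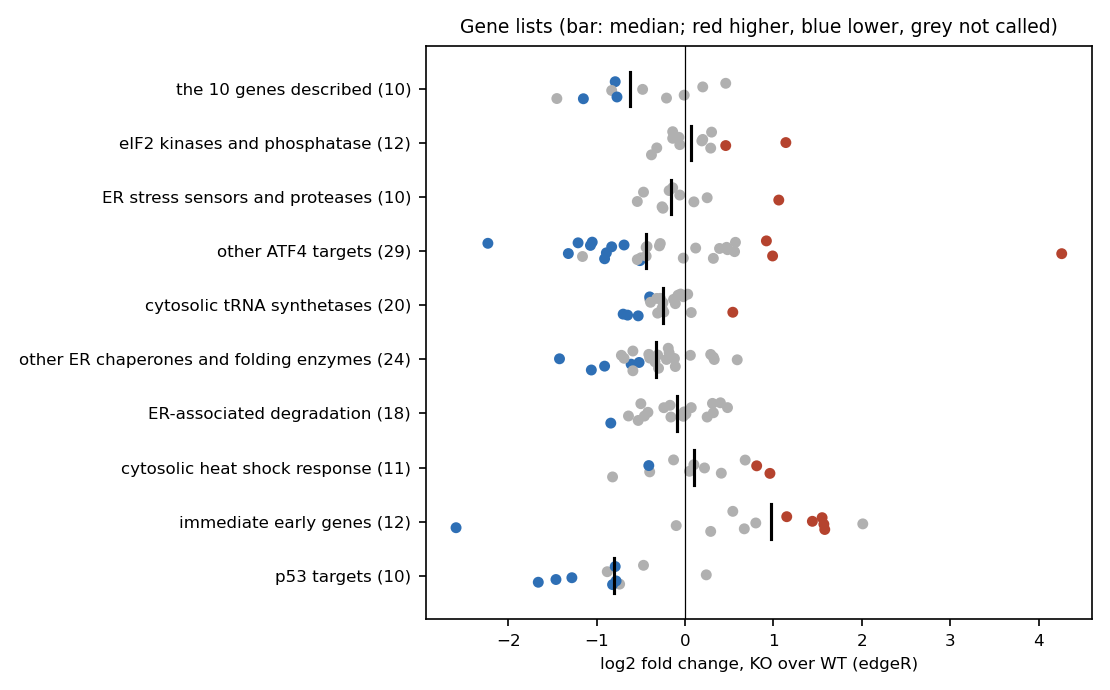
Log2 fold change of KO over WT (edgeR) for each tested gene of the 10 genes described and of 9 gene lists, with the number tested in brackets; red was called higher, blue lower and grey neither, and the bar is the median. The medians lie below 0 for p53 targets (−0.80), the 10 genes (−0.62), other ATF4 targets (−0.44), other ER chaperones (−0.32), tRNA synthetases (−0.26), ER stress sensors (−0.16) and ER-associated degradation (−0.09).

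The libraries held 33605258 to 40558740 counted reads. Muscle identity was read from markers. Of 10 listed myotube markers, 8 were found under the names searched, and *Mymk* and *Mymx* were not. The 8 found summed to 8510, 3680 and 3970 TPM in KO and to 7540, 5620 and 6990 TPM in WT. KO1 was thus above every WT library, and KO2 and KO3 were below. KO1 was also the KO library with the highest level for 8 of the 10 genes; the part of differentiation in the results was not tested, and in bulk RNA fewer cells of a type and less RNA per cell cannot be told apart. None of the 8 myotube markers was called by edgeR. At an unadjusted p under 0.05, 2 were lower and 0 higher, beside 18.5% and 20.5% of all genes tested. In TPM 2 were lower and 0 higher, beside 11.8% and 8.46%. Of 6 myoblast markers 3 were called higher (*Myod1*, *Cdh15*, *Pax7*) and 1 lower (*Myf5*), beside 12.1% and 10.6% of all genes tested. The sums of the 6 myoblast markers overlapped, at 559 to 763 TPM in KO and 634 to 698 TPM in WT, and their part in the results was not tested. Of 4 fibroblast markers, 3 were tested and 1 was called higher (*Pdgfra*); their sums were 77.9, 8.36 and 64.0 TPM in KO and 10.3, 9.88 and 18.3 TPM in WT, and their part in the results was not tested. The 3 endothelial, 3 epithelial and 3 adipocyte markers summed to at most 0.306 TPM in any library, and the 3 immune markers to at most 1.73 TPM.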

How the data were processed

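Total RNA of 6 C2C12 libraries (3 KO, 3 WT) was depleted of rRNA and sequenced in pairs. The authors deposited raw gene counts from featureCounts and, per library, TPM values from StringTie after STAR alignment (submitters' processing notes also list Trim Galore, FastQC and Salmon). For these deposited files, tool versions, annotation release and strand setting are not given in the sources used here. The study gives a Salmon version for its separate poly(A) analysis. The study's methods name GRCm39 and the processing notes mm9, but 83.2% of the 45137 deposited genes found in GENCODE M21 (GRCm38) had identical start and end there, so coordinates are given as GRCm38.

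Counts were tested with edgeR 4.0.16 (R 4.3.3; TMM factors, filterByExpr, quasi-likelihood, 14828 genes), two-sided, with Benjamini-Hochberg adjustment over all genes tested and a threshold of 0.05; CPM are TMM-scaled. Log2(TPM + 1) was tested with limma 3.58.1 for the 11691 genes that reached a TPM of 1 in 3 or more libraries, after summing the 8 to 17 repeated gene identifiers per library. Scripts were tested on simulated data. The genes and lists were chosen with earlier results of these data known. Named in the lists were the eIF2 kinases, *Ppp1r15a*, *Ppp1r15b*, *Ern1*, *Atf6* and *Atf6b*, and up to 3 higher and 3 lower genes per list with the largest change among called genes with a mean CPM of at least 1. Genes most like *Atf4*, *Ddit3* and *Hspa5* were the 3 with the highest r among tested genes whose log2 CPM averaged 5 or more; 1 of them is not reported here. Other genes named in lists without their CPM were added after their values were seen. Alternatives were DESeq2 1.42.0, RLE factors, library totals, no filter on low values, a TPM pseudocount of 0.1, the replicate number as a block, and leaving out each library.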

Additional observations from a re-analysis of the deposited data

How the results depend on the processing

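Of 200 alternative values for the 10 genes, 159 kept their direction and side of the threshold, 24 fell below it, 7 passed it and 10 changed sign, all 10 in *Trib3*, *Sesn2* or *Dnajb9*, none of them called. Without a filter on low counts 5 of the 10 genes were called, all lower, when 4538 genes in all were (2320 higher, 2218 lower), and without a filter on low TPM 0 were called, when 1056 genes in all were (432 higher, 624 lower). Leaving out 1 library gave 0 to 5 of the 10 genes called in counts (0 to 1 higher, 0 to 5 lower) and 0 to 4 in TPM (all lower). Over all genes it gave 933 to 4712 calls in counts (460 to 2381 higher, 473 to 2331 lower) and 482 to 3134 in TPM (229 to 1515 higher, 253 to 1619 lower). Library totals as the only scaling gave 2295 higher and 1174 lower, against 1796 and 1565, and moved the median log2 fold change of all genes from 0.034 to 0.150. Signs turned in *Dnajb9* with library totals (0.10) and without KO2, KO3 or WT2 (0.18, 0.05, 0.08; in TPM 0.17 without KO2 and 0.07 without WT2), its range with 1 library left out being −0.28 to 0.18 (TPM −0.21 to 0.17). Without WT2 they turned in *Trib3* (0.07; TPM 0.11; ranges −0.77 to 0.07 and −0.67 to 0.11) and *Sesn2* (0.07; TPM 0.08; ranges −0.38 to 0.07 and −0.41 to 0.08). They also turned in *Eif2ak3* with library totals (0.06), in *Ppp1r15a* with library totals (0.04), the replicate block (0.18) and without KO2 or WT2 (0.07, 0.72; range −0.39 to 0.72), and in *Ern1* without KO1, WT1 or WT3 (−0.07, −0.04, −0.03; range −0.07 to 0.34); the cause was not tested. Deviations of same-numbered libraries from the genotype means had r of 0.137, −0.116 and 0.00413, beside −0.335 to 0.28 for libraries of unlike number. With 3 libraries a genotype these values cannot decide whether the numbers pair the libraries. With the replicate block 2520 genes and 3 of the 10 were called, beside 3361 and 3. The block also ended the calls of *Eif2ak1*, *Creb3l1*, *Farsa*, *Sars*, *Qars* and *Hsf1* (adjusted p = 0.0815, 0.0566, 0.0652, 0.058, 0.0586 and 0.0777), leaving 1 tRNA synthetase lower and 0 higher. With 3 libraries a genotype, *Atf4*, *Trib3*, *Sesn2* and *Dnajb9* were called in no setting, and the smallest difference that could be detected was not estimated.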

Other observations

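Stress genes outside the integrated stress and unfolded protein responses were read for comparison. Of 10 p53 targets, 6 were called lower and 0 higher, beside 10.6% and 12.1% of all genes tested, with a median log2 fold change of −0.80. At an unadjusted p under 0.05, 8 were lower and 0 higher, beside 18.5% and 20.5% of all genes tested. DESeq2 called 8 lower and 0 higher, beside 11.8% and 12.5%. *Ccng1*, encoding cyclin G1, was at −1.66 (SE 0.23, adjusted p = 0.00406), the apoptosis gene *Bbc3* at −1.46 (SE 0.32, adjusted p = 0.0171) and the RNA-binding protein gene *Zmat3* at −1.28 (SE 0.16, adjusted p = 0.00295). Their summed level was 528, 385 and 439 TPM in KO and 931, 791 and 737 TPM in WT, without overlap. Without WT1 3 of the 10 were called, all lower, where 933 of all genes were called (473 lower). *Bbc3* was then at −1.31 with an adjusted p of 0.0794.

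Of 12 immediate early genes, 5 were called higher and 1 lower, beside 12.1% and 10.6% of all genes tested, with a median log2 fold change of 0.98. *Junb* was at 1.58 (SE 0.13, adjusted p = 0.000712), *Ier2* at 1.55 (SE 0.26, adjusted p = 0.00704) and *Egr1* at 1.44 (SE 0.36, adjusted p = 0.0266), while the nuclear receptor gene *Nr4a1* was at −2.59 (SE 0.47, adjusted p = 0.01). *Egr1* was called without KO1 but not without any other library (adjusted p from 0.0614 to 0.104). The higher count was 3 without KO3, 2 without WT1 and 2 without WT3. Over all genes tested, 1169, 460 and 616 were higher in these fits, against 1796 with all libraries. The lowest and highest summed levels were 161 and 232 TPM in KO and 88.3 and 124 TPM in WT. The other genes called higher were *Fosb* (1.57, adjusted p = 0.0316), at under 1 CPM in every library, and *Fosl1* (1.15, adjusted p = 0.0269).

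Of 11 tested genes of the cytosolic heat shock response, 2 were called higher and 1 lower, with a median of 0.10, a share in either direction near the 22.7% of all genes tested. *Hsp90aa1* was at 0.96 (SE 0.14, adjusted p = 0.00519), *Dnajb1*, the HSP40 co-chaperone gene, at 0.81 (SE 0.17, adjusted p = 0.0172), and *Hsf1*, the factor that drives the response, at −0.41 (SE 0.12, adjusted p = 0.0445). *Hsp90aa1* held without any one library, and *Dnajb1* was lost without WT1, WT2 or WT3 (0.0732, 0.0541 and 0.078). *Hsf1*, called in 3 of 12 settings, was lost without KO1, KO3, WT1, WT2 or WT3 (0.0708, 0.109, 0.136, 0.116 and 0.0928). It was also lost by DESeq2 (0.0502), with library totals (0.154), with no filter on low counts (0.0806) and with the replicate number as a block (0.0777). Without WT1, WT2 or WT3, 1 gene of the list was called higher, where 460, 1070 and 616 of all genes were. With all libraries 1796 of all genes were higher.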
